A study of Mus musculus with 16 samples.

Results

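The genes Lcn2, Serpina3n, Steap4, S100a6, Timp1, Cd44, Lad1, Tnnt2, Prss56 and 2900024J01Rik were described here across mouse retinas that had seen dim or bright light. They are 10 of the 18193 genes that have a probe set of their own on the array, and earlier results of these data named them as the most strongly light-induced genes that stand in no immune gene list. Because that choice rested on their measured rise after light, the rise itself is given below as a description without a test. The 10 genes have 17 of the 45037 probe sets on the array. Of these, 15 passed the filter on low values and 2 did not, a second Steap4 probe set that never exceeded log2 4.03 and a Cd44 probe set that lay between 2.21 and 2.23 on every array. Each gene is represented by the probe set with its highest mean level, and all 10 of these passed the filter.

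RNA of the neural retina was measured on 16 Affymetrix arrays. The animals were albino BALB/c mice of both sexes, 11-16 weeks old, raised in dim light of 50 lux, and they either lacked Nxnl1 (knockout, Nxnl1-/-) or carried it (wild type, Nxnl1+/+). Nxnl1 is known for a secreted product of rods that helps cones survive, and its protein resembles thioredoxin. After 16 h of darkness the mice received white light for 1 h at 50, 2500 or 5000 lux and were returned to darkness for 24 h before the retina was taken free of the pigment epithelium. For the knockout there were 3 arrays at 50 lux, 3 at 2500 and 2 at 5000, and for the wild type 2 arrays at 50 lux, 3 at 2500 and 3 at 5000. The series text speaks of triplicates, so 2 of the 6 groups hold fewer arrays than it states. The knockout label names no promoter or cell type, and the labels do not give the deleted part of the gene. The labels leave unsaid whether RNA was pooled over animals, so the p-values below measure the spread between labelled biological replicates, and the number of arrays limits the precision. Levels are log2 of the deposited intensity, on which 1 unit is a doubling, and the lowest value of every array was 2.21.

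Nxnl1 itself averaged 2.24, 2.45 and 2.57 in knockout retinas at 50, 2500 and 5000 lux, and 7.57, 6.44 and 6.06 in wild-type retinas at the same doses, so the genotype labels held at each dose. Median intensity per array ran from 14.4 to 15.8, and no pair of arrays was identical. The summed level of 12 Müller glia markers ran from 15.44 to 15.68 (log2) on the bright-light arrays and from 15.22 to 15.41 on the 50 lux arrays. For the summed level of 13 microglia and macrophage markers, the range was 8.85 to 9.42 in knockout retinas at 50 lux, 11.47 to 11.67 at 2500 lux and 10.77 to 10.91 at 5000 lux. In wild-type retinas it was 8.36 to 8.54, 10.76 to 11.63 and 10.95 to 11.32 at the same doses. Within that list Itgam lay at 2.21 on all arrays, Ptprc never exceeded 3.09, and 5 of the 13 genes never exceeded log2 4. Both sums were higher after bright light, but few bright genes carried them. Without Lgals3, which rose by 4.65 in knockout and 4.82 in wild-type retinas (log2), the microglia and macrophage sum of the other 12 genes was 8.67 to 9.13 at 50 lux, 8.73 to 9.14 at 2500 lux and 8.20 to 9.26 at 5000 lux in knockout retinas. In wild-type retinas it was 8.13 to 8.21, 8.90 to 9.15 and 8.50 to 9.26 at the same doses. Of 7 tested genes of that list, 2 rose and 1, Csf1r, fell in knockout retinas, and 5 rose and none fell in wild-type retinas. Of 12 Müller glia markers 3 rose and 4 fell in knockout retinas, and 4 rose and 4 fell in wild-type retinas; Vim, Gfap and Clu rose, and Rlbp1, Glul, Abca8a and Car14 fell, in both. The part of these markers in the values of the 10 genes was not tested. In whole-retina RNA, more cells of a type and more RNA per cell cannot be told apart.

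Several of the 10 genes are known from injured nervous tissue, where astrocytes and Müller glia, the radial glia of the retina, become reactive and start to make acute-phase proteins. Lcn2, Serpina3n, Steap4, Timp1 and Cd44 all belong to the set described as pan-reactive in mouse astrocytes. Such genes are commonly driven through cytokine receptors of the gp130 family and STAT3, through C/EBP factors and through NF-kappaB, whose binding sites can lie close to the transcription start.

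The upstream stretch of the promoters was read from RefSeq (build GRCm38.p6), where 9 of the 10 genes were matched. The RefSeq entry with the symbol 2900024J01Rik carries another gene ID than the array annotation, so its promoter was not searched. The 250 bases before each start were searched on both strands for the STAT motif TTCNNNGAA, the AP-1 motif TGANTCA, the C/EBP motif TTGCNNAA, the kappaB motif (GGGA and CC with 4 bases of any kind between them) and the TATA motif TATAAA. Among 32851 promoters of the same length, 7.0% held the STAT motif, 6.7% the AP-1 motif, 9.6% the C/EBP motif, 17.6% the kappaB motif and 12.4% the TATA motif. The promoters of Lcn2, Serpina3n, Steap4 and Prss56 held at least 1 match and are printed here, 5′ to 3′ along the gene, since they show where the matches lie; capitals mark the matched letters. They span chr2:32387740-32387989 on the minus strand for Lcn2, and on the plus strand chr12:104406458-104406707 for Serpina3n, chr5:7960222-7960471 for Steap4 and chr1:87183064-87183313 for Prss56.
Lcn2: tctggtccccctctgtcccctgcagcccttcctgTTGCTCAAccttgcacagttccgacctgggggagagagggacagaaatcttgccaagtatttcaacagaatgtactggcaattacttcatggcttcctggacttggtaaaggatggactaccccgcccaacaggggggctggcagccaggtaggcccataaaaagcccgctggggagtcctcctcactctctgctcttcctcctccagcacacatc
Serpina3n: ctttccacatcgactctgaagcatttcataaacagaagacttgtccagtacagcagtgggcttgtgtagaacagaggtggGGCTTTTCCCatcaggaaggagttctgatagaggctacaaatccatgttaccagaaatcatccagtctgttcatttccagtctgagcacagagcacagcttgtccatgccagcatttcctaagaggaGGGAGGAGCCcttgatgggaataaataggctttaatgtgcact
Steap4: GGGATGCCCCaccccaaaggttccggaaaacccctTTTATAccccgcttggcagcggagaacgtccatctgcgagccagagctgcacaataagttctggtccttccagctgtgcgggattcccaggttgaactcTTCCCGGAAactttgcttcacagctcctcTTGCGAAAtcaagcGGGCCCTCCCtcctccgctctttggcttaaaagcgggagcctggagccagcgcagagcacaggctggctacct
Prss56: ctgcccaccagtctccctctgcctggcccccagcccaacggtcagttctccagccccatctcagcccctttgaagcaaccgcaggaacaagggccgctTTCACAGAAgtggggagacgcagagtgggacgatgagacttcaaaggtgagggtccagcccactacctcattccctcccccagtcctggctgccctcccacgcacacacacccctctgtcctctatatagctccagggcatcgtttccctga

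Lcn2 had a C/EBP match from -216 to -209 relative to the start. Matches on the opposite strand appear above as their reverse complement. In Serpina3n a kappaB match lay from -43 to -34 and another, read on the opposite strand, from -170 to -161. Steap4 held the most matches: a STAT match from -116 to -108, a C/EBP match from -87 to -80, kappaB matches from -250 to -241 and, on the opposite strand, from -73 to -64, and a TATA match on the opposite strand from -215 to -210. Prss56 had a STAT match from -152 to -144. The windows of S100a6, Timp1, Cd44, Lad1 and Tnnt2 held none of these letter strings. A match is only a run of letters, and whether a factor binds there was not measured.

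All 10 genes lay higher after bright light in both genotypes, by between 1.89 and 5.56 log2 units in knockout retinas (median 3.97) and between 1.97 and 6.24 in wild-type retinas (median 4.08), taking both bright doses together against 50 lux. For every gene the 11 arrays at 2500 or 5000 lux lay above the 5 arrays at 50 lux, which held for 5.18% of the tested probe sets. At the adjusted threshold of 0.05, 9.82% of tested probe sets were higher and 12.1% lower in bright light in knockout retinas, against 7.59% higher and 6.04% lower in wild-type retinas. The genes were chosen by this response, so nothing is read from their own count against these shares. Folds are written as "at least" where every array of a group lay at or below log2 4, the filter level, to which that group was then raised.

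Ordered by their rise over both genotypes among 10916 tested genes, Lcn2 ranked 1, S100a6 2, Prss56 7, Serpina3n 10, Lad1 11, Tnnt2 13, Steap4 18, Timp1 22 and 2900024J01Rik 31. Cd44 ranked 119, so the name of strongest induced genes did not describe it as it did the other members; Cd44 and 2900024J01Rik also had the smallest gaps between the lowest bright array and the highest 50 lux array, 1.06 and 1.23 log2 units. The widest gap was that of Lcn2, 4.04 units.

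**Figure D1:**
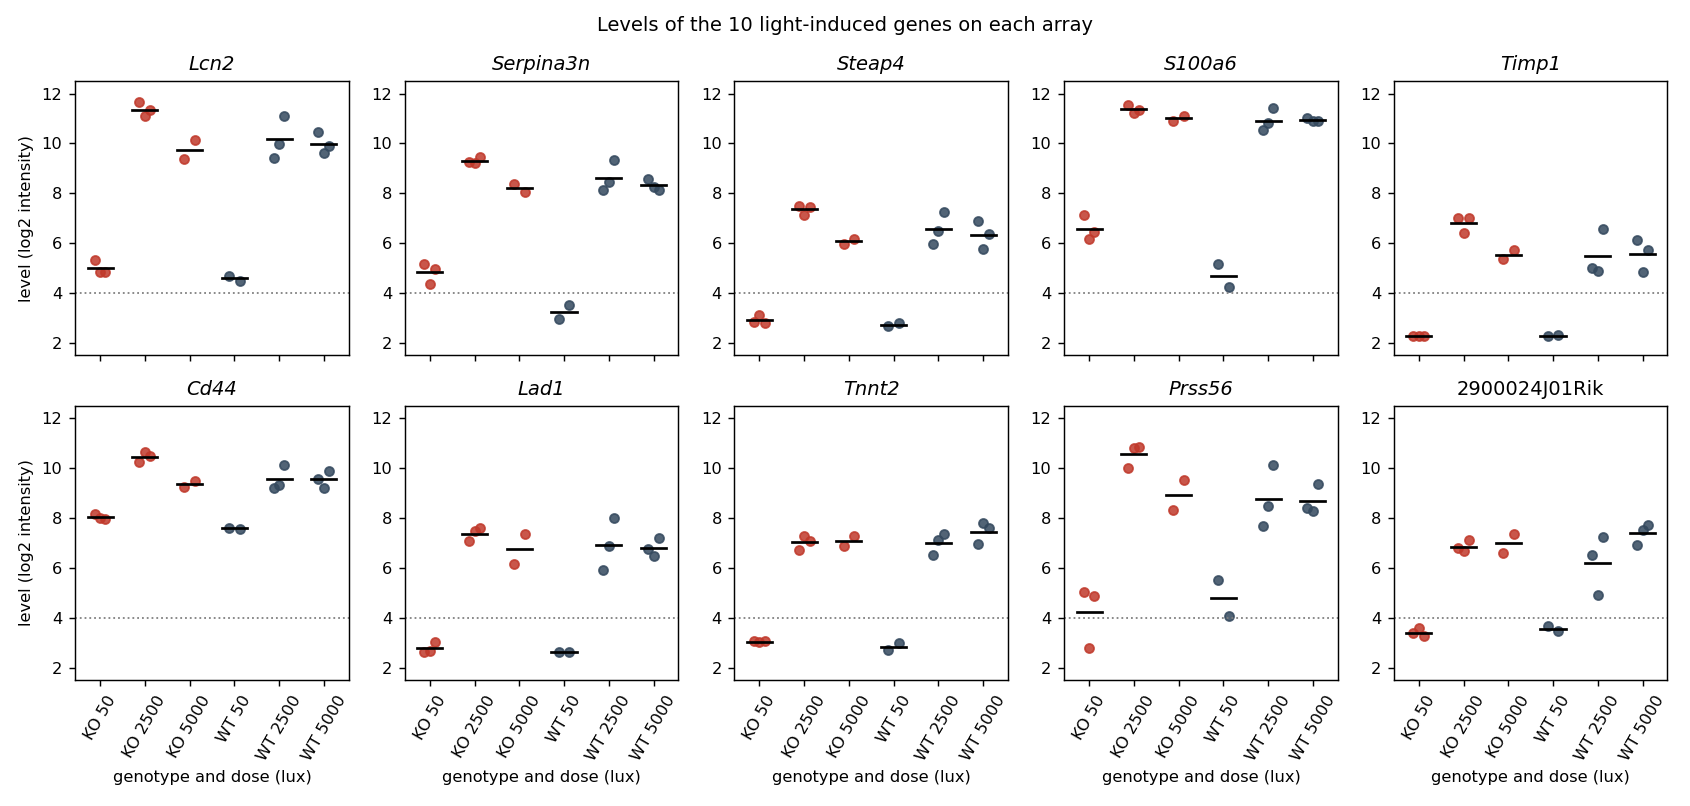
Log2 level of each of the 10 genes on each of the 16 arrays, in the 3 knockout groups and the 3 wild-type groups by dose in lux; a point is an array, the bar is the group mean and the dotted line is the filter level of log2 4. In every panel the arrays at 50 lux sit below those at 2500 and 5000 lux.

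Lcn2 encodes lipocalin 2, a secreted acute-phase protein that binds the siderophores bacteria use to collect iron. In knockout retinas it had log2 levels of 5.33, 4.83 and 4.84 at 50 lux, 11.64, 11.08 and 11.35 at 2500 lux, and 9.37 and 10.13 at 5000 lux. Wild-type retinas gave 4.69 and 4.50 at 50 lux, 9.41, 9.99 and 11.11 at 2500 lux, and 10.45, 9.63 and 9.88 at 5000 lux. The knockout arrays at 2500 lux were the highest, and only the third wild-type array at that dose reached their range. The means lay 82.1-fold above 50 lux at 2500 lux and 26.9-fold at 5000 lux in knockout retinas, and 47.8-fold and 42.1-fold in wild-type retinas.

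Serpina3n encodes a secreted inhibitor of serine proteases of the antichymotrypsin type. Its levels in knockout retinas were 5.16, 4.35 and 4.98 at 50 lux, 9.24, 9.20 and 9.47 at 2500 lux, and 8.39 and 8.05 at 5000 lux. Wild-type levels were 2.94 and 3.51 at 50 lux, 8.12, 8.44 and 9.32 at 2500 lux, and 8.57, 8.27 and 8.13 at 5000 lux. The genotypes were apart at 50 lux, where the lowest knockout array lay above the highest wild-type array, and overlapped at both bright doses. The mean lay 22.2-fold and 10.5-fold above 50 lux at 2500 and 5000 lux in knockout retinas, and at least 24.8-fold and at least 20.0-fold in wild-type retinas. Whether the probe set also reads close mouse relatives of Serpina3n was not checked.

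Steap4 encodes a metalloreductase that reduces iron and copper at the cell membrane. It lay at 2.82, 3.13 and 2.79 in knockout retinas at 50 lux, at 7.47, 7.13 and 7.45 at 2500 lux, and at 5.97 and 6.18 at 5000 lux. Wild-type values were 2.66 and 2.80 at 50 lux, 5.97, 6.50 and 7.25 at 2500 lux, and 6.89, 5.75 and 6.37 at 5000 lux. At 50 lux Steap4 was below the filter level on all 5 arrays, and after bright light it was above it on all 11. The folds over 50 lux were at least 10.2 and at least 4.21 at 2500 and 5000 lux in knockout retinas, and at least 5.95 and at least 5.05 in wild-type retinas.

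S100a6, or calcyclin, is a small calcium-binding protein of the S100 family. Its knockout levels were 7.13, 6.15 and 6.43 at 50 lux, 11.54, 11.22 and 11.34 at 2500 lux, and 10.89 and 11.11 at 5000 lux. In wild-type retinas the levels were 5.16 and 4.23 at 50 lux, 10.54, 10.81 and 11.40 at 2500 lux, and 11.00, 10.89 and 10.91 at 5000 lux. The bright arrays of both genotypes lay within about a unit of each other, while the 50 lux arrays of the genotypes did not overlap. As a result the fold over 50 lux was smaller in knockout retinas, 27.8 at 2500 lux and 21.5 at 5000 lux, against 74.9 and 75.8 in wild-type retinas.

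Timp1 encodes a secreted inhibitor of matrix metalloproteinases. It was at 2.27 on all 3 knockout arrays at 50 lux, at 7.0, 6.41 and 7.02 at 2500 lux, and at 5.35 and 5.74 at 5000 lux. The wild-type arrays read 2.27 and 2.32 at 50 lux, 5.0, 4.90 and 6.55 at 2500 lux, and 6.13, 4.83 and 5.74 at 5000 lux. Timp1 was near the lowest value of the array at 50 lux and above the filter level on all bright arrays, at least 7.01-fold and at least 2.92-fold higher at 2500 and 5000 lux in knockout retinas. In wild-type retinas it was at least 2.8-fold and at least 2.95-fold higher.

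Cd44 encodes the cell-surface receptor for hyaluronan, and it was above the filter level on all arrays already at 50 lux. Its brightest probe set read 8.14, 7.99 and 7.95 in knockout retinas at 50 lux, 10.23, 10.64 and 10.50 at 2500 lux, and 9.26 and 9.49 at 5000 lux. In wild-type retinas it read 7.61 and 7.56 at 50 lux, 9.20, 9.34 and 10.13 at 2500 lux, and 9.57, 9.22 and 9.89 at 5000 lux. It was the only member whose knockout arrays at 2500 lux all lay above all wild-type arrays at that dose. Its folds over 50 lux were 5.38 and 2.55 at 2500 and 5000 lux in knockout retinas, and 3.92 at each dose in wild-type retinas. The other Cd44 probe sets that passed the filter gave larger rises, 2.27 and 2.99 log2 units in knockout retinas and 2.41 and 2.46 in wild-type retinas, against 1.89 and 1.97 for the brightest.

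Lad1 encodes ladinin 1, a protein of the anchoring filaments of epithelial basement membranes. Knockout arrays read 2.63, 2.68 and 3.02 at 50 lux, 7.07, 7.47 and 7.58 at 2500 lux, and 6.16 and 7.37 at 5000 lux. Wild-type arrays read 2.63 and 2.63 at 50 lux, 5.90, 6.87 and 8.01 at 2500 lux, and 6.74, 6.48 and 7.18 at 5000 lux. Both genotypes were below the filter level at 50 lux and overlapped in bright light. The rise was at least 10.4-fold and at least 6.79-fold at 2500 and 5000 lux in knockout retinas, and at least 7.61-fold and at least 6.96-fold in wild-type retinas.

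Tnnt2 encodes cardiac troponin T, which ties the troponin complex to tropomyosin on the thin filament of heart muscle. Its levels in knockout retinas were 3.06, 3.01 and 3.06 at 50 lux, 6.73, 7.27 and 7.07 at 2500 lux, and 6.88 and 7.27 at 5000 lux. Those in wild-type retinas were 2.69 and 3.00 at 50 lux, 6.53, 7.11 and 7.35 at 2500 lux, and 6.95, 7.78 and 7.59 at 5000 lux. Tnnt2 had nearly the same level in both genotypes and at both bright doses. It lay at least 8.13-fold and at least 8.41-fold above 50 lux at 2500 and 5000 lux in knockout retinas, and at least 7.99-fold and at least 10.9-fold in wild-type retinas. Its other probe sets lay higher by 4.37 and 1.86 log2 units in knockout retinas and by 4.81 and 1.80 in wild-type retinas, against 4.0 and 4.38 for the brightest.

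Prss56 encodes a trypsin-like serine protease of Müller glia whose loss alters the size of the eye in mice. Its knockout levels were 5.04, 2.78 and 4.88 at 50 lux, 10.01, 10.79 and 10.84 at 2500 lux, and 8.33 and 9.54 at 5000 lux. Wild-type retinas had 5.51 and 4.08 at 50 lux, 7.67, 8.48 and 10.12 at 2500 lux, and 8.41, 8.26 and 9.37 at 5000 lux. Prss56 was the most variable member between replicates, with the second knockout array at 50 lux more than 2 units below the others of its group; without that array its rise over both bright doses in knockout retinas was 4.78 log2 units, against 5.51 with it. It lay 79.4-fold and 26.1-fold above 50 lux at 2500 and 5000 lux in knockout retinas, and 15.6-fold and 14.8-fold in wild-type retinas.

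2900024J01Rik is annotated on the array without a described role. It read 3.37, 3.57 and 3.26 in knockout retinas at 50 lux, 6.79, 6.66 and 7.11 at 2500 lux, and 6.61 and 7.34 at 5000 lux. Wild-type retinas had 3.67 and 3.46 at 50 lux, 6.50, 4.91 and 7.22 at 2500 lux, and 6.90, 7.52 and 7.72 at 5000 lux. Like Tnnt2, it had its highest single array in the wild-type group at 5000 lux. The rise was at least 7.23-fold and at least 7.86-fold at 2500 and 5000 lux in knockout retinas, and at least 4.63-fold and at least 10.4-fold in wild-type retinas. A second probe set of 2900024J01Rik lay higher by 2.97 log2 units in knockout retinas and 3.15 in wild-type retinas, against 3.51 and 3.23 for the brightest.

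**Figure D2:**
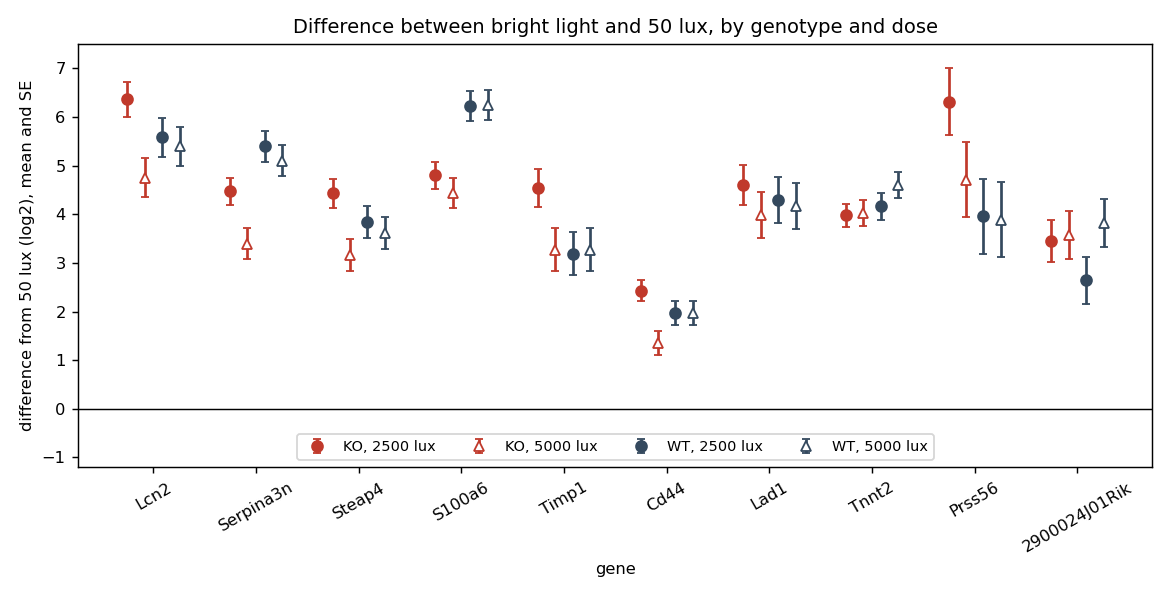
Difference in log2 level from 50 lux for each of the 10 genes at 2500 lux (filled circles) and 5000 lux (open triangles), knockout beside wild type, with the standard error of the fit. S100a6 shows the smaller difference in knockout retinas at both doses (4.80 and 4.43, against 6.23 and 6.24 in wild type), and Prss56 the larger one (6.31 and 4.71, against 3.96 and 3.89 in wild type).

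The genotypes were then compared at each dose, with limma over all 23320 tested probe sets and Benjamini-Hochberg adjustment. These tests use the arrays whose light response chose the genes. The group means compared here also entered that response, so the tests are not fully independent of the choice. At 50 lux S100a6 was the only member that passed: it was higher in knockout retinas by 1.88 log2 units (SE 0.31, 95% interval 1.21 to 2.55), which is 3.67-fold, with an adjusted p of 0.029. In that comparison 0.326% of tested probe sets passed. Serpina3n was 1.6 units higher in knockout retinas (SE 0.32, at least 1.78-fold), with an adjusted p of 0.061 that missed the threshold. Cd44 differed by 0.44 (adjusted p 0.41) and Lcn2 by 0.41 (adjusted p 0.64), and the other 6 genes by between -0.56 and 0.20. The other Cd44 probe sets that passed the filter gave 0.43, without overlap of the genotypes, and -0.32, with overlap. By their brightest probe sets, Lcn2, Serpina3n, S100a6 and Cd44 had all knockout arrays above both wild-type arrays at 50 lux. Tnnt2 also did, which makes 5 of the 10, against 21.4% of tested probe sets, but it lay below the filter level on all 5 arrays, with 3.01 as its lowest knockout and 3.00 as its highest wild-type value, so nothing is read from its order. Marker sums also stood apart between the genotypes at 50 lux. Lens markers summed to 12.69, 11.17 and 10.80 in knockout retinas and to 7.28 and 5.81 in wild-type retinas, and microglia and macrophage markers to 9.42, 9.02 and 8.85 in knockout retinas and to 8.54 and 8.36 in wild-type retinas. Without Lgals3 the microglia and macrophage sums were 9.13, 8.84 and 8.67 in knockout retinas and 8.21 and 8.13 in wild-type retinas. Corneal and conjunctival markers summed to 11.31, 10.95 and 10.95 in knockout retinas and to 10.08 and 10.01 in wild-type retinas. Krt18, from which that sum mainly came, was higher in knockout retinas by 1.06 log2 units (SE 0.18, adjusted p 0.037 in limma). The part of these markers in the S100a6 difference was not tested.

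The S100a6 call depended on the arrays and settings used. Under 25 alternatives it passed in 16, with a difference of 1.41 to 2.34 log2 units and an adjusted p between 0.011, with array weights, and 0.43, when only the groups compared were fitted. Serpina3n passed in 4 of the 25, with differences of 0.83 to 1.89 and adjusted p from 0.017 to 0.43.

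At 2500 lux all 10 genes, by their brightest probe sets, had a higher mean in knockout than in wild-type retinas. The differences were 0.02 to 1.79 log2 units (median 0.72), and limma called none, against 0.0943% of tested probe sets called. Other tested probe sets gave -0.09 and -0.01 for Tnnt2, -0.0 for 2900024J01Rik, and 0.88 and 0.94 for Cd44. The higher mean in all 10 genes thus depended on the probe set used. Without adjustment 6 of the 10 had p under 0.05, as had 1303 of the tested probe sets. Prss56 differed by 1.79 (SE 0.69, adjusted p 0.75), Timp1 by 1.32 (SE 0.39, adjusted p 0.52), Lcn2 by 1.19 (SE 0.36, adjusted p 0.54) and Cd44 by 0.89 (SE 0.22, adjusted p 0.33). Cd44 alone did not overlap between the genotypes, which held for 4.57% of tested probe sets with knockout higher.

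The third wild-type array at 2500 lux bore on this comparison. It was the highest of its group for 10 of the 10 genes, by a median of 1.22 log2 units above the mean of the other arrays (0.53 to 2.04), while the median over all tested genes was 0.02. With that array left out, the median knockout difference at 2500 lux was 1.13 (0.2 to 2.47), and 3 genes passed, while 0.369% of tested probe sets did. These were Timp1 at 1.86 (adjusted p 0.026), Lcn2 at 1.66 (adjusted p 0.038) and Cd44 at 1.18 (adjusted p 0.017). Without it the median light difference of the 10 genes in wild-type retinas was 3.78, against 4.08 with it. The summed microglia and macrophage level was 11.63 on that array and 10.76 and 10.85 on the other wild-type arrays at 2500 lux; without Lgals3 it was 9.15 on that array and 9.08 and 8.90 on the others. Its part in the difference was not tested. Nothing in the labels sets the array apart.

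At 5000 lux the differences were small in both directions, from -0.41 to 0.26 log2 units (median -0.15), with 2 genes higher and 8 lower in knockout retinas. None was called by limma or had an unadjusted p under 0.05. Of all tested probe sets 0.00429% were called, and 540 had an unadjusted p under 0.05. The intervals remained wide, reaching from -1.40 to 1.91 for Prss56 and from -0.72 to 0.35 for Cd44.

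**Figure D3:**
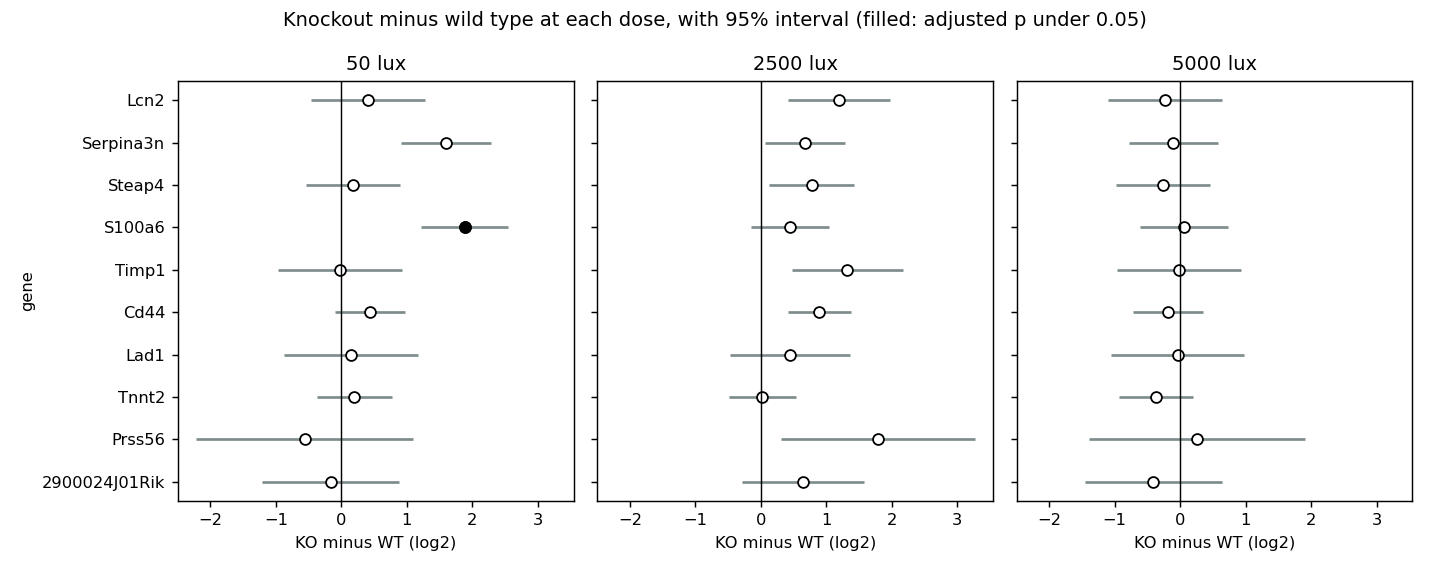
Knockout minus wild-type difference in log2 level of each of the 10 genes at 50, 2500 and 5000 lux, with 95% intervals of the fit; filled points passed the adjusted threshold. S100a6 at 50 lux (1.88) is the only filled point, all 10 points at 2500 lux lie above 0, and those at 5000 lux lie between -0.41 and 0.26. Each point is the brightest probe set of its gene.

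Whether the genotypes differed in their response to light was tested directly by the interaction over both bright doses. None of the 10 genes passed in limma, against 0.0643% of tested probe sets, and 2 of the 10 had an unadjusted p under 0.05, as had 2346 of the tested probe sets. The response of S100a6 was 1.62 log2 units smaller in knockout retinas (difference -1.62, SE 0.37, adjusted p 0.21) and that of Serpina3n 1.32 units smaller (difference -1.32, SE 0.38, adjusted p 0.34). Both were the genes with the higher knockout level at 50 lux, so this test shares the 50 lux arrays with the one above. For Serpina3n both wild-type arrays at 50 lux lay below the filter level (2.94 and 3.51), so its difference rests partly on values under that level. With values floored at log2 4 the genotype difference of Serpina3n at 50 lux was 0.83, against 1.6. Prss56 had a larger response in knockout retinas by 1.58 (SE 0.92, adjusted p 0.55), and the other 7 genes differed by -0.37 to 0.68.

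Between the bright doses no member passed the test in either genotype. In knockout retinas 8 of the 10 genes had a lower mean at 5000 than at 2500 lux, and in 7 of them every array at 5000 lux lay below every array at 2500 lux, as in 14.8% of tested probe sets. The differences were -1.61 for Lcn2 (SE 0.40, adjusted p 0.16) and for Prss56 (SE 0.77, adjusted p 0.41), -1.27 for Steap4 (adjusted p 0.17), -1.26 for Timp1 (adjusted p 0.28), -1.08 for Serpina3n (adjusted p 0.21) and for Cd44 (adjusted p 0.13), and -0.37 for S100a6 (adjusted p 0.64). Lad1, Tnnt2 and 2900024J01Rik, the remaining members, overlapped between the doses. Limma called 0.0772% of tested probe sets in this step, and 5 of the 10 members had an unadjusted p under 0.05, as had 2952 of the tested probe sets. With the third wild-type array at 2500 lux left out, which changes only the estimate of spread and the set of probe sets tested here, Lcn2 (adjusted p 0.043) and Cd44 (adjusted p 0.030) passed, with 0.374% of tested probe sets.

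In wild-type retinas the step from 2500 to 5000 lux ranged from -0.30 to 1.17 log2 units (median -0.04), with the highest value in 2900024J01Rik (adjusted p 0.59). The second probe set of 2900024J01Rik gave 0.24. Its brightest probe set read 4.91 on the second wild-type array at 2500 lux, against 6.50 and 7.22 on the others of that group. No member had all arrays lower at 5000 lux, while 6.07% of tested probe sets did. Limma called 0% of tested probe sets in this step, 1917 of them had an unadjusted p under 0.05, and 1 of the 10 members did.

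The difference between the genotypes in this step was a comparison added after the values had been seen. It was negative for the brightest probe set of each of the 10 genes, from -1.53 to -0.38 log2 units (median -1.05). None passed, against 0.00858% of tested probe sets, and 4 of the 10 had an unadjusted p under 0.05, as had 1131 of the tested probe sets. The smallest adjusted p among these probe sets was 0.69, for Cd44 (-1.08, SE 0.33). Other tested probe sets, none of them called, gave 0.14 and -0.36 for Tnnt2, -0.3 for 2900024J01Rik, and -1.18 and -1.47 for Cd44. The step in knockout retinas rests on 2 arrays at 5000 lux, and the first of them was the lower for 9 of the 10 genes. Microglia and macrophage markers had a lower sum at 5000 than at 2500 lux in knockout retinas as well, 10.77 to 10.91 against 11.47 to 11.67. Lgals3 carried that difference, with means of 10.40 at 5000 and 11.32 at 2500 lux; without it the sums overlapped, 8.20 to 9.26 at 5000 and 8.73 to 9.14 at 2500 lux. The part of Lgals3 in the step was not tested.

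**Figure D4:**
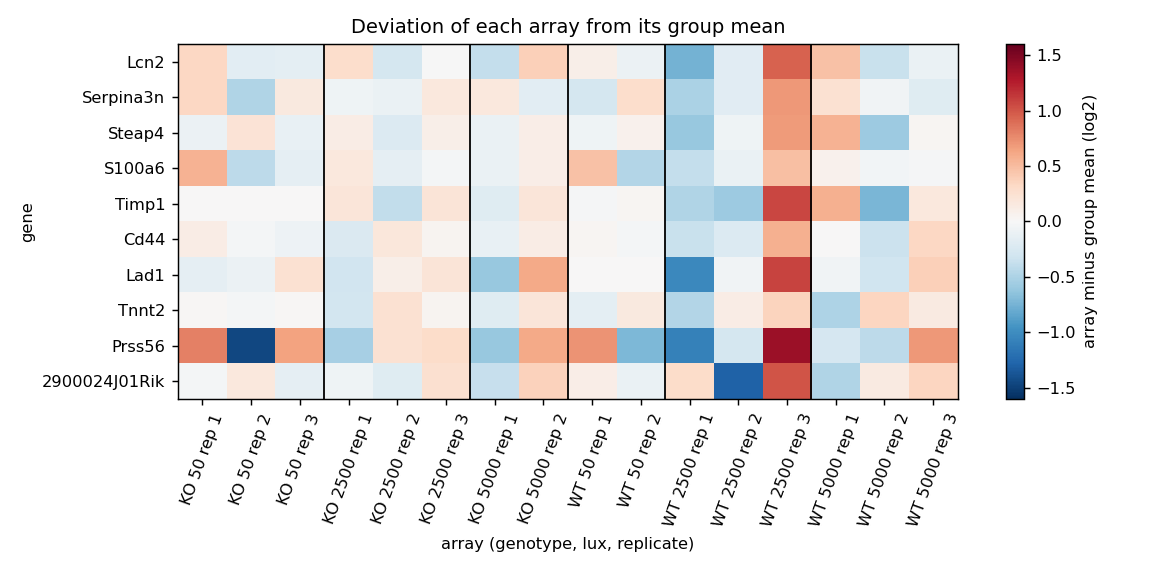
Deviation of each array from the mean of its group (log2) for the 10 genes, arrays across and genes down. The column of the third wild-type array at 2500 lux is above 0 for all 10 genes.

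Within groups the deviations of the members were positively correlated in nearly all pairs. Over the 45 pairs of members, the correlation of the deviations from the group means across 16 arrays had a median of 0.5 and ran from -0.01 to 0.90, with 44 pairs above 0. The closest pairs were Steap4 with Timp1 (0.90), Lcn2 with Timp1 (0.85), Lcn2 with Steap4 (0.83) and Cd44 with Lad1 (0.83). Tnnt2 and 2900024J01Rik stood further out, with median correlations to the other members of 0.26 and 0.32, against 0.66 for both Lcn2 and Lad1. The points share their arrays, and thus any shift of a whole array. The third wild-type array at 2500 lux was the highest of its group for all 10 genes, with a median over all tested genes of 0.02. It thus deviated the same way in every pair. Its part in the correlations was not tested, and other gene pairs were not correlated for comparison.

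Over the 16 arrays, group differences included, each member had genes with a nearly parallel profile, and the 3 with the highest Pearson r are named as a description. Steap4 and Lcn2 were each among the other's (r 0.995). Lcn2 was also followed by Oasl2, an interferon-induced gene, and S1pr3, a sphingosine phosphate receptor (0.992 each), and Steap4 by Oasl2 (0.996) and the copper ferroxidase Cp (0.992). S100a6 ran most closely with Cebpd, a C/EBP transcription factor of the acute phase (0.995), with Sec22c (0.993) and with Wwtr1, a coactivator of the Hippo pathway (0.992). Serpina3n ran with the interferon-induced Ifitm3 (0.992), the desmosomal Pkp2 (0.990) and Wwtr1 (0.989). Timp1 was closest to the interferon-inducible GTPase Irgm2 (0.992), Steap4 (0.987) and Usp18 (0.986), and Cd44 to Usp18 and the urea transporter Slc14a1 (0.986 each) and to the endothelin receptor Ednrb (0.985).

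Lad1 was closest to the unconventional myosin Myo10 (0.991), Agtpbp1 and the cytokine feedback inhibitor Socs3 (0.987 each). Tnnt2 was closest to Dnttip2 (0.990), to the NF-kappaB cofactor Bcl3 (0.988) and to Rfx2 (0.987). Prss56 and 2900024J01Rik had the loosest companions: S100a10 (0.982), Kremen1 (0.979) and Irgm2 (0.975) for Prss56, and Rnf144b (0.972), Naa35 (0.966) and Lmo1 (0.961) for 2900024J01Rik. All of these values are dominated by the shared contrast between 50 lux and brighter light.

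Lad1 and Tnnt2 are next to each other on chromosome 1, and both lay far higher in bright light, while the genes on either side of them did not leave the low range. Tnni1, the neighbour before Lad1, was at 2.21 on all 16 arrays, and Pkp1, the neighbour after Tnnt2, never exceeded 3.88. Deviations of Lad1 and Tnnt2 from their group means correlated at 0.64. Near Steap4, the calcium-binding Sri rose by 0.78 log2 units in knockout retinas (SE 0.17, adjusted p 0.0052) and 1.04 in wild-type retinas (SE 0.18, adjusted p 0.002). Neighbours were the protein-coding genes with the nearest start coordinate on either side, so a gene overlapping a member can be among them. Syn1, the gene before Timp1 by start, fell by 0.71 in knockout retinas (SE 0.22, adjusted p 0.034) and did not pass in wild-type retinas (-0.37, adjusted p 0.37). H3f3a, next to the RefSeq entry that shares the symbol 2900024J01Rik, rose by 1.51 in knockout retinas (SE 0.27, adjusted p 0.0018) and 1.14 in wild-type retinas (SE 0.30, adjusted p 0.022). Ptges2 and 1110008P14Rik beside Lcn2, Cfp beside Timp1, Slc1a2 and Pdhx beside Cd44 and Acbd3 beside 2900024J01Rik did not pass. Gsc, Tex47, S100a5, Ecel1 and Chrnd, neighbours of other members, stayed at or below 2.32.

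**Figure D5:**
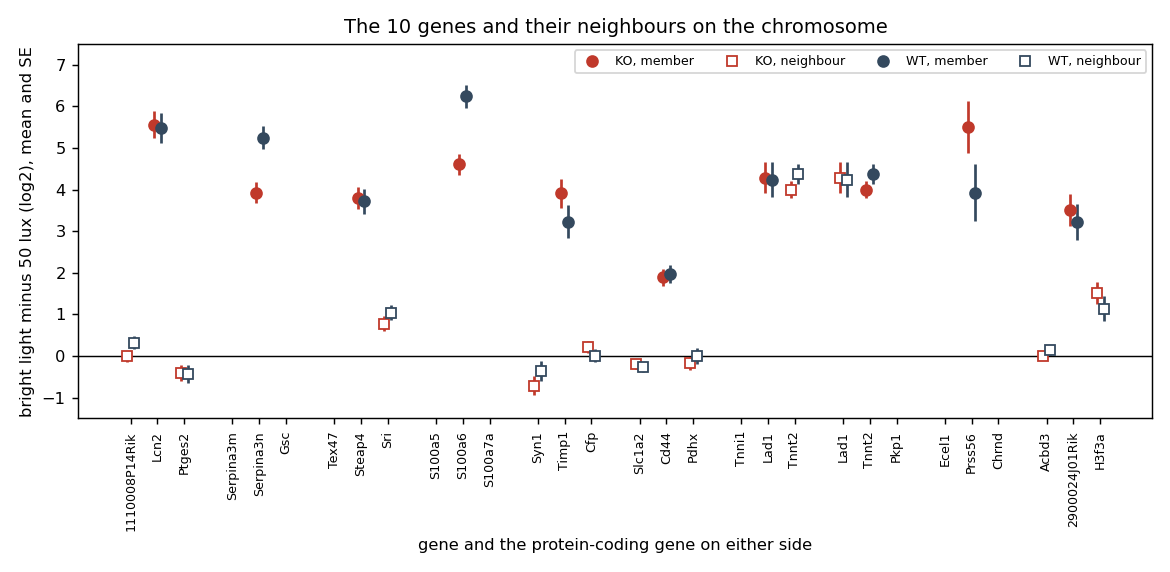
Bright-light difference in log2 level, knockout and wild type, with standard errors, for the members and the protein-coding genes with the nearest start coordinate on either side. Genes without a point were not tested. Lad1 and Tnnt2 are neighbours and stand at 4.29 and 4.0 in knockout retinas, while the other neighbours that were tested lie between -0.71 and 1.51 in knockout retinas.

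Related genes, from lists that leave out the 10 members, were counted in the same bright-light contrast, in which the median of all tested genes was -0.09 in knockout and 0.02 in wild-type retinas. These lists were drawn up with earlier results of these data known. Some of the genes counted, among them Cxcl10, Iigp1, Cd14 and Bcl3, averaged below log2 4 at 50 lux in both genotypes. They passed the filter only through bright-light arrays, so nothing is read from their calls or from the size of their rises. Of 7 other tested pan-reactive astrocyte genes, 6 rose and none fell in each genotype, with medians of 1.94 in knockout and 2.41 in wild-type retinas. Cp rose by 2.89 and 2.86 in knockout and wild-type retinas, the filament gene Vim by 1.94 and 1.98, the oncostatin M receptor Osmr by 2.58 and 3.48, and S1pr3 by 2.13 and 2.41. Of 8 A1-type genes, named after a harmful form of reactive astrocyte, 6 rose and 1 fell in knockout retinas and 5 rose and none fell in wild-type retinas (medians 1.46 and 2.12). The complement inhibitor Serping1 rose by 3.76 and 4.67 and the interferon-induced GTPase Gbp2 by 3.24 and 3.72 in knockout and wild-type retinas. Of 6 A2-type genes 4 rose in knockout and 3 in wild-type retinas, and none fell (medians 1.49 and 1.19).

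Regulators of the acute phase were counted over 17 tested genes, of which 13 rose in knockout and 12 in wild-type retinas, and none fell (medians 1.05 and 1.07). The knockout count includes Fosl1, which passed the filter only through the knockout arrays at 2500 lux. Its mean was 4.30 in that group and 2.21 to 2.69 in the others, so nothing is read from its call. Bcl3 rose by 5.36 and 5.15, Socs3 by 5.11 and 5.69, Cebpd by 4.04 and 6.29 and Stat3 by 1.89 and 2.40 in knockout and wild-type retinas. Rises of Socs3 and Cebpd were thus of the size of those of the members. Bcl3 averaged 2.36 and 2.57 at 50 lux in knockout and wild-type retinas, below the filter level, so the size of its rise is not read. Among lipocalins and Lcn2 partners none of 4 tested genes rose and 1 fell in each genotype (medians -0.58 in knockout and -0.47 in wild-type retinas), the receptor Slc22a17 in knockout retinas (-0.67, adjusted p 0.0023) and the receptor Lrp2 in wild-type retinas (-0.71, adjusted p 0.014). None of the 12 genes on the array from the list of other clade A serpins and their target proteases was tested, and all stayed at or below 2.30.

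Iron-handling relatives of Steap4 stood mostly near the background of all genes. Of 8 tested STEAP and iron transport genes 1 rose and 1 fell in knockout retinas, and 2 rose and none fell in wild-type retinas (medians -0.08 and 0.07). Cp rose in both, the ferroxidase Heph fell by 1.15 in knockout retinas (adjusted p 0.0091), where wild type had -0.82 (adjusted p 0.091), and Slc39a14 rose by 0.50 in wild-type retinas (adjusted p 0.013), where knockout had 0.06. Steap1 and Steap3 stayed low, never above 4.16 and 2.45.

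Of 9 tested genes of the S100 family and its partners, 6 rose and 1 fell in each genotype, with medians of 1.5 in knockout and 1.57 in wild-type retinas. S100b was the gene that fell, by 1.02 in knockout and 1.06 in wild-type retinas, and S100pbp and Cacybp did not pass. S100a10, which forms a complex with annexin A2, rose by 2.15 and 1.92, Anxa2 itself by 1.5 and 2.07, S100a16 by 1.62 and 1.57 and S100a13 by 1.65 and 2.00 in knockout and wild-type retinas. S100a8 and S100a9, made abundantly by neutrophils, were at 2.21 on every array.

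Among 10 tested TIMPs and metalloproteinases, 4 rose in knockout and 3 in wild-type retinas, and none fell (medians -0.01 and 0.19). The proteases Adamts1 (1.16 and 1.51), Mmp14 (1.24 and 1.13) and Adamts5 (0.64 and 0.71) rose in knockout and wild-type retinas. The remaining call in knockout retinas was Mmp3, which passed the filter only through the knockout arrays at 2500 lux. Of 9 ligands and partners of CD44, 4 rose in each genotype and none fell (medians 0.58 in knockout and 0.39 in wild-type retinas): the membrane linker Msn by 1.55 and 1.85, the proteoglycan Srgn by 1.06 and 2.13, the receptor Met by 1.35 and 1.16 and fibronectin, Fn1, by 0.58 and 0.68 in knockout and wild-type retinas.

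Among hemidesmosome and anchoring filament genes, which Lad1 accompanies in epithelia, 5 of 11 on the array were tested. Of these, 2 rose in each genotype (medians 0.51 in knockout and 0.55 in wild-type retinas). Cd151 rose in both (0.95 and 1.00 in knockout and wild-type retinas). Itga6 rose in knockout retinas (1.07), where wild type had 0.55 (adjusted p 0.24). Plec rose in wild-type retinas (0.88), where knockout had 0.51 (adjusted p 0.093). Among sarcomere genes 9 of 22 on the array were tested and 4 rose in each genotype, Tnnt1 by 1.40 and 1.44, Tpm3 by 0.95 and 0.85, Tpm4 by 0.58 and 0.80 and Tmod1 by 0.59 and 0.70, while 1 fell in knockout and none in wild-type retinas (medians 0.04 and 0.28). Tnni3, Actn2, Myh6, Myh7, Myl2 and Myl7, genes of heart muscle, were at 2.21 on all arrays. Other genes of heart muscle in the list were measured above the filter level: cardiac troponin C, Tnnc1, at 4.46 to 5.02, Myl3 at 4.55 to 4.66 and Nebl at 9.02 to 9.66, none of which passed, and Tpm1 at 6.60 to 7.78, which fell by 0.65 in knockout retinas (adjusted p 0.0043). Of 6 genes of eye size and PRSS-type proteases, 2 rose and 1 fell in knockout retinas and 1 rose and 1 fell in wild-type retinas (medians -0.17 and -0.14). Prss23 rose by 1.30 and 1.17 and Tmem98 by 0.89 in knockout retinas (adjusted p 0.019), with 0.49 in wild-type retinas (adjusted p 0.27).

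Markers of tissue next to the retina were read for the same arrays. All 9 neutrophil markers on the array stayed at or below 2.22 on every array. In the corneal list 8 of 10 genes never exceeded log2 4, with Krt5, Krt12 and Krt14 at or below 2.85, and the sum (10.01 to 11.37) came mainly from Krt18. Aldh3a1, of the same list, reached 5.30 on a wild-type array at 5000 lux and averaged 2.21 in every other group. In the list for iris, ciliary body and muscle 9 of 10 never exceeded log2 4, and the summed level ran from 6.13 to 6.55. Pigment epithelium markers had sums of 12.61 to 13.59, 11.84 to 12.90 and 12.15 to 12.20 in knockout retinas at 50, 2500 and 5000 lux, against 13.27 to 13.75, 12.48 to 13.34 and 11.67 to 12.26 in wild-type retinas. Lens markers summed to 15.76 on the second wild-type array at 5000 lux and to 5.68 and 6.96 on the others of that group. Of 6 rod markers 5 fell in knockout retinas and 3 in wild-type retinas after bright light, and none rose. The part of these neighbouring tissues and of rods in the values of the 10 genes was not tested.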

How the data were processed

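RNA of 16 mouse retinas was measured on Affymetrix arrays. The authors deposited linear intensity values for each probe set and array; per the submitters' processing notes they were made with GCRMA, whose settings the sources do not give. Log2 was taken of each value. Probe sets above log2 4 on at least 2 arrays were tested (23320 of 45037). A model with 6 group means was fitted in limma 3.58.1 under R 4.3.3 (10 residual and 3.18 prior degrees of freedom), and p was adjusted by Benjamini-Hochberg over all tested probe sets, with a threshold of 0.05. In the annotation 34945 probe sets had 1 symbol, 932 several and 9160 none; the brightest probe set with 1 symbol stood for a gene.

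The members and lists were chosen with earlier results of these data known. Named beside the members were the 3 genes most correlated with each, up to 4 genes of each list with the smallest p in the pooled light contrast, the protein-coding neighbours and Nxnl1. Replicate numbers were not treated as pairs, because the labels give them no shared litter, batch or day and not every same-numbered pair of arrays deviated together. The script was tested on simulated data. Alternatives covered the filter, scaling, a floor, array weights, an intensity trend, a replicate block, the groups fitted and each array left out in turn.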

Additional observations from a re-analysis of the deposited data

How the results depend on the processing

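Under 25 alternatives, 16 of which leave out an array, none of 510 member rises changed sign, 19 moved by more than the spread between arrays, and 71 of 1750 values of tested comparisons, all uncalled, changed sign. With values floored at log2 4 the median rise of the members was 3.06 in knockout and 3.04 in wild-type retinas; with an array left out it ran from 3.94 to 4.05 and from 3.78 to 4.34. At 50 lux the number of members called was 0 with no filter, 0 with only the groups compared fitted, 2 with array weights and 0 to 2 with an array left out. It was 2, S100a6 and Serpina3n, without the second knockout array at 50 lux or without the first or the third wild-type array at 2500 lux, and 0 without the first or the third knockout array at 50 lux, the second wild-type array at 50 lux, the third wild-type array at 5000 lux or any knockout array at 2500 lux. At 2500 lux 0 to 3 members were called with an array left out. For the knockout dose step it was 0 to 2 with an array left out. Deviations from group means correlated with a median of 0.175 over 36 same-numbered pairs of arrays (-0.238 to 0.693, 21 above 0.1) and of -0.11 over 70 differently numbered pairs (13 above 0.1), so same-numbered arrays were somewhat more alike as a hint from the data, but not in every pair. With the replicate block, 1 member was called at 50 lux and 0 in each other tested comparison, as without it; over all tested probe sets it gave 100 calls at 50 lux, against 76, and 27 at 2500 lux, against 22. Over all tested probe sets, other settings gave 1 to 248 calls at 50 lux (9 to 362 with an array left out), 4 to 39 at 2500 lux (2 to 86, against 22), 0 to 3 at 5000 lux (1 to 9, against 1), 10 to 73 for the light interaction (4 to 43, against 15), 0 to 32 for the knockout dose step (0 to 103, against 18), 0 for the wild-type step (0 to 30, against 0) and 0 to 3 for the difference in step (0 to 28, against 2). Bright light gave 3420 to 6617 calls in knockout retinas (3321 to 6344, against 5122) and 2597 to 5036 in wild-type retinas (1261 to 3456, against 3180). The cause of these shifts was not tested. Signals near 2.21 carry no order, which limits the 50 lux levels of Steap4, Timp1, Lad1 and Tnnt2.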

Other observations

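A pair of genes from the lists of related genes, picked here after their values were seen, is described for knockout retinas at 2500 lux. Other genes of these lists, among them Fosl1, Iigp1, Tm4sf1 and Clcf1, also had their highest group mean there. Mmp3, a secreted metalloproteinase that Timp1 inhibits, read 4.12, 3.16 and 4.93 (log2) on the knockout arrays at 2500 lux and 2.21, the lowest value, on each of the other 13 arrays. It passed the filter on low values only through the group where it was high, so no test is given. Emp1, a membrane protein of the A2-type list, read 5.30, 5.94 and 4.91 on the knockout arrays at 2500 lux, 4.01 and 4.01 on those at 5000 lux, and 4.01, 4.47 and 4.54 on the wild-type arrays at 2500 lux. All 3 knockout arrays at 2500 lux thus lay above the wild-type arrays at that dose, as in 4.57% of tested probe sets. The genotype difference of Emp1 at that dose was 1.04 log2 units (SE 0.23) and was not called by limma (adjusted p 0.23).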
